A study of Mus musculus with 8 samples.

Results

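The aquaporins described here are Aqp1, Aqp3, Aqp4, Aqp7, Aqp8 and Aqp11, 6 of the 16309 genes that could be named on a mouse whole-genome array. They were chosen by gene name from 12 aquaporin genes on the array, with earlier results of these data known. Each was found through the RefSeq transcript accession of its probes, with 3 probes for Aqp4 and 1 for each of the others. Where a gene had several probes, the brightest gave its value. The series compared rectal mucosa with mucosa from the middle of the colon, in wild-type mice (WT) and in mice lacking interleukin 18 (IL18ko), before and after the stress of being housed alone. Tissue, genotype and housing gave 8 groups, and each was measured on 1 array with RNA pooled in equal amounts from 5 mice.

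All mice were reared with their brothers and were 10 to 12 weeks old when isolation began. Control mice were killed before isolation, so the stress mice were also older than their controls. The labels give the time of isolation as 8 days in one place and 16 days in another. The strain and sex of the mice and the part of Il18 that was deleted are not given in the sources used here, nor whether a colon pool and a rectum pool came from the same animals. With 1 pool per group there are no replicates of a group. A comparison therefore rests on 4 matched pairs of arrays. The pairs give rectum minus colon within each mouse group and IL18ko minus WT within each tissue and housing. They also give stress minus control within each tissue and genotype. The p-value of a comparison sets the mean of its 4 pairs against their spread, moderated across all tested probes. It does not measure the spread between mice.

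Aquaporins are channels that let water cross cell membranes along an osmotic gradient, and in the large bowel water follows the salt that the surface epithelium absorbs. Aqp1, Aqp4 and Aqp8 belong to the water channels proper, Aqp3 and Aqp7 are aquaglyceroporins that also pass glycerol, and Aqp11 is a divergent member found on internal membranes. Aqp8 is known from the surface colonocytes and Aqp4 from the basolateral membrane of gut epithelium. Aqp1 is known from endothelium and red cells, Aqp3 from basolateral membranes of stratified and gut epithelia, and Aqp7 from adipocytes.

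Levels are given as log2 of the scanner's background-corrected signal relative to the 75th percentile of the same array, so 0 is the 75th percentile. Every array had 43379 spots, of which 62.2% to 66.4% were well above background and none was saturated. The correlation between arrays over probes was 0.985 to 0.992 within a tissue and 0.970 to 0.976 between tissues. Il18 did not rise well above background in any IL18ko pool and was at least 1210-fold lower there than in WT. The 9 epithelial markers were well above background on every array, and their mean log2 level was 5.58 to 5.80 in colon and 5.25 to 5.46 in rectum. The colon arrays shared one slide and the rectum arrays another. Tissue and slide therefore cannot be told apart, nor can mouse group and position on a slide.

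Of the 6 genes, Aqp1, Aqp4, Aqp8 and Aqp11 were well above background on all 8 arrays, Aqp3 on 6 and Aqp7 on 2. A probe was tested if it was well above background on at least 4 arrays, which left 26265 probes and 5 of the 6 genes. Aqp7 was not tested. Between colon and rectum, Aqp4 fell by 4.48 on the log2 scale and Aqp1 fell by 0.78, while the levels of Aqp8 and Aqp11 moved by less than their spread over pairs. Aqp3 had its 2 highest values in the IL18ko rectum, a difference that limma did not call. No aquaporin was called for genotype or for stress.

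**Figure D1:**
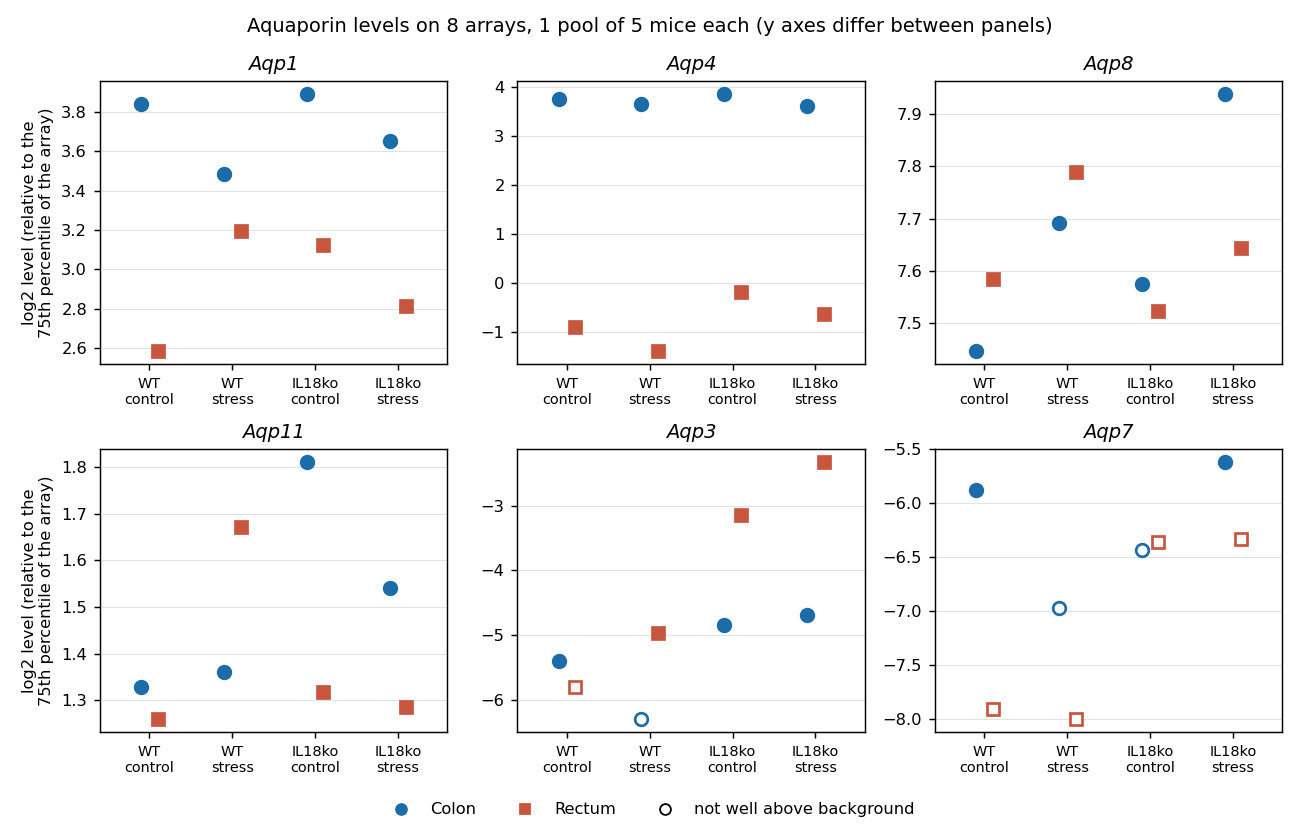
Log2 level of the 6 aquaporins (y axis, relative to the 75th percentile of the array) on each of the 8 arrays, by mouse group (x axis), with colon as circles, rectum as squares and open marks where the probe was not well above background. Aqp4 was between 3.60 and 3.85 on the colon arrays and between -1.39 and -0.18 on the rectum arrays, while the Aqp8 levels of both tissues lay within 7.45 and 7.94.

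Aqp4 carried the largest tissue difference among the 5 tested aquaporins. In colon its log2 level was 3.74 in WT control, 3.65 in WT stress, 3.85 in IL18ko control and 3.60 in IL18ko stress mice. In rectum it was -0.89, -1.39, -0.18 and -0.62 in the same order. The tissues did not overlap, and the gap between the lowest colon and the highest rectum array, 3.78, was above the 0.45 SD of the pair differences. Aqp4 was 24.8-fold lower in the rectum of WT control mice, 33-fold in WT stress, 16.4-fold in IL18ko control and 18.7-fold in IL18ko stress mice. The mean difference was -4.48 ± 0.18 (SE, 4 pairs), a 22.4-fold fall with an adjusted p of 2.21e-05 in limma, and Aqp4 was called in 14 of 14 alternative analyses.

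The other 2 probes of Aqp4 gave the same picture. In colon the second probe read 2.68, 2.93, 2.72 and 2.14 in the order used above, and in rectum -1.73, -3.22, -1.40 and -1.51. The third probe read 2.60, 2.84, 2.55 and 2.26 in colon and -1.69, -2.76, -1.39 and -1.58 in rectum. The differences were -4.58 ± 0.38 (SE, adjusted p = 0.000352) for the second Aqp4 probe and -4.42 ± 0.29 (SE, adjusted p = 0.000144) for the third, both from limma. On all 3 probes the WT stress rectum was the lowest array.

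**Figure D2:**
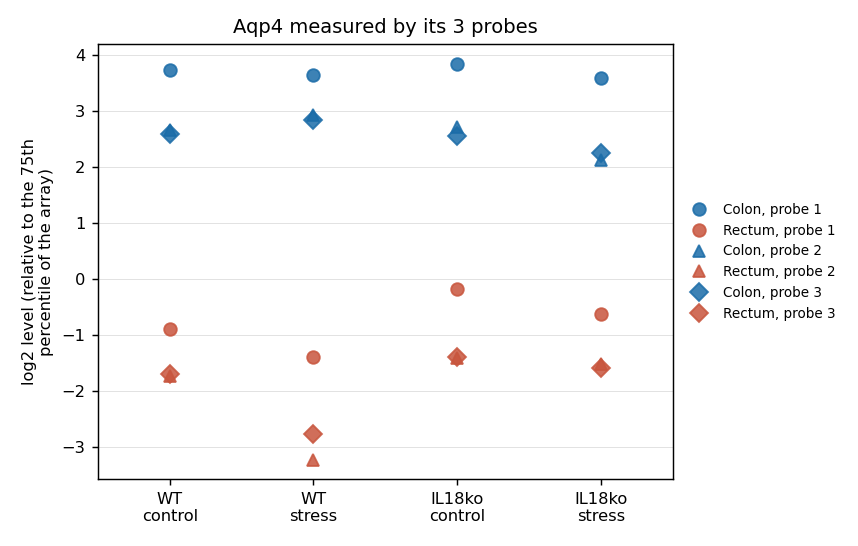
Log2 level of the 3 Aqp4 probes (y axis, relative to the 75th percentile of the array) in each mouse group (x axis), colon in blue and rectum in red. Every probe was lower in rectum than in colon in each mouse group, and the WT stress rectum gave the lowest value of each probe.

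Aqp1 was also lower in rectum. Its log2 level in colon was 3.84 in WT control, 3.48 in WT stress, 3.89 in IL18ko control and 3.65 in IL18ko stress mice, and in rectum 2.58, 3.20, 3.12 and 2.82. The 4 colon arrays lay above the 4 rectum arrays, but the gap between the nearest of them, 0.29, was smaller than the 0.40 SD of the pair differences. The mean difference of Aqp1 was -0.78 ± 0.16 (SE, 4 pairs; 1.72-fold; limma adjusted p = 0.013), lower in 4 of 4 pairs, from -1.25 in WT control to -0.29 in WT stress mice. The call was lost without the WT control pair (-0.63, adjusted p = 0.0656) and without the IL18ko control pair (-0.79, adjusted p = 0.0618). Among the 14 alternatives to the Aqp1 tissue test, the adjusted p ran from 0.000413 to 0.0656.

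Aqp8 was at nearly the same level in both tissues. Its log2 level was 7.45, 7.69, 7.58 and 7.94 in colon and 7.59, 7.79, 7.52 and 7.64 in rectum, in the order WT control, WT stress, IL18ko control and IL18ko stress. The tissues overlapped, and the difference was -0.03 ± 0.10 (SE) with a 95% interval of -0.27 to 0.21 from limma. Aqp11 overlapped as well, at 1.33, 1.36, 1.81 and 1.54 in colon and 1.26, 1.67, 1.32 and 1.29 in rectum. The tissue difference of Aqp11 was -0.13 ± 0.15 (SE; 95% interval -0.48 to 0.22). These intervals leave out a tissue difference of the size seen for Aqp4.

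Aqp3 was dim on most arrays. In colon it was at -5.40 in WT control, -4.84 in IL18ko control and -4.68 in IL18ko stress mice, and not well above background in WT stress mice, where it read -6.30. In rectum it was not well above background in WT control mice, where it read -5.80, and was at -4.96 in WT stress, -3.15 in IL18ko control and -2.32 in IL18ko stress mice. The tissues overlapped, and only the rectum of IL18ko mice stood above all colon arrays. The mean tissue difference of Aqp3 was 1.25 ± 0.43 (SE, limma adjusted p = 0.0733), which counts the readings that were not well above background as they stand. In rectum Aqp3 was at least 1.31-fold lower in WT control mice, and it was at least 2.53-fold higher in WT stress, 3.23-fold in IL18ko control and 5.14-fold in IL18ko stress mice. Aqp3 was called without the WT control pair (1.80, adjusted p = 0.0114) and, at a smaller difference, after normexp background correction (0.59, adjusted p = 0.0271). In its 12 alternatives the adjusted p ran from 0.0114 to 0.225.

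Aqp7 was well above background in the colon of WT control mice, at -5.88, and of IL18ko stress mice, at -5.62. It read -6.97 in WT stress and -6.43 in IL18ko control colon and -7.90, -8.00, -6.36 and -6.33 in the 4 rectum arrays, none of which was well above background. In the pairs that held a measured value, Aqp7 was at least 1.06-fold brighter in colon than in rectum of WT control mice and at least 1.64-fold brighter in IL18ko stress mice.

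Aqp1 and Aqp4 were thus the 2 of 5 tested aquaporins called for tissue, 0 higher and 2 lower in rectum. The same test called 27.5% of all 26265 probes, with 14% higher in rectum and 13.5% lower. Of all probes, 40.2% had an unadjusted p under 0.05 against 3 of the 5 aquaporins. The direction was the same in 4 of 4 pairs for 47.9% of all probes, and the arrays of the tissues did not overlap for 31.1%. A tissue call was therefore common on this array, and 2 of 5 is not read as particular to the aquaporins. The median tissue difference of the 5 genes was -0.13, beside 0.06 over all probes. In pooled tissue, fewer cells of a type and less RNA per cell cannot be told apart.

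The markers of other cell types also differed between the tissues. Of 4 tested markers of enteric neurons and glia, all 4 fell in rectum, among them Elavl4, an RNA-binding protein of neurons (-1.93 ± 0.12 SE, limma adjusted p = 9.66e-05), and S100b, a glial calcium-binding protein (-1.02 ± 0.13 SE, adjusted p = 0.00203). Their mean level was 0.14 to 0.69 in colon and -1.29 to -0.65 in rectum. Of 7 absorptive colonocyte markers, 3 were higher and 3 lower in rectum, and their mean level was 5.60 to 5.81 in colon and 5.49 to 5.68 in rectum. Of 11 skeletal muscle markers, 7 were higher and 0 lower, with a mean level of -4.45 to -2.41 in colon and -2.33 to 3.03 in rectum.

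Of 5 goblet cell markers, 3 were lower and 0 higher in rectum, with a median difference of -0.70 and a mean level of 6.96 to 7.08 in colon and 6.01 to 6.23 in rectum. Of 5 macrophage and dendritic cell markers, 3 were higher, and of 3 tested neutrophil markers 2 were higher, with median differences of 1.18 and 4.55 and none lower. Of 7 smooth muscle markers, 0 were called, with 1 at an unadjusted p under 0.05 in limma.

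For the cell types in which Aqp1 is known, 2 of 9 endothelial markers were higher and 0 lower in rectum. Of 3 tested erythroid markers, 2 rose, namely Hba-a1, an alpha globin (3.25 ± 0.20 SE, limma adjusted p = 0.000106), and Alas2, the erythroid enzyme that starts heme synthesis (3.18 ± 0.23 SE, adjusted p = 0.000189). The erythroid mean level was -4.31 to -4.05 in colon and -2.17 to -1.64 in rectum, where Aqp1 was lower. Of 9 adipocyte markers, 7 fell in rectum, as with Cidec, a lipid droplet protein (-2.47 ± 0.26 SE, adjusted p = 0.000959). Of 6 tested squamous markers 4 rose, as with Col17a1, a hemidesmosome collagen at least 3.95-fold higher in rectum (log2 difference 0.64 after normexp background correction). Col17a1 was not well above background on any colon array. The rectum arrays alone brought it through the filter for testing, so its p-value is not used. The counts of 6 tested and 4 higher squamous markers still include it. The part of these cell types in the aquaporin differences was not tested.

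**Figure D3:**
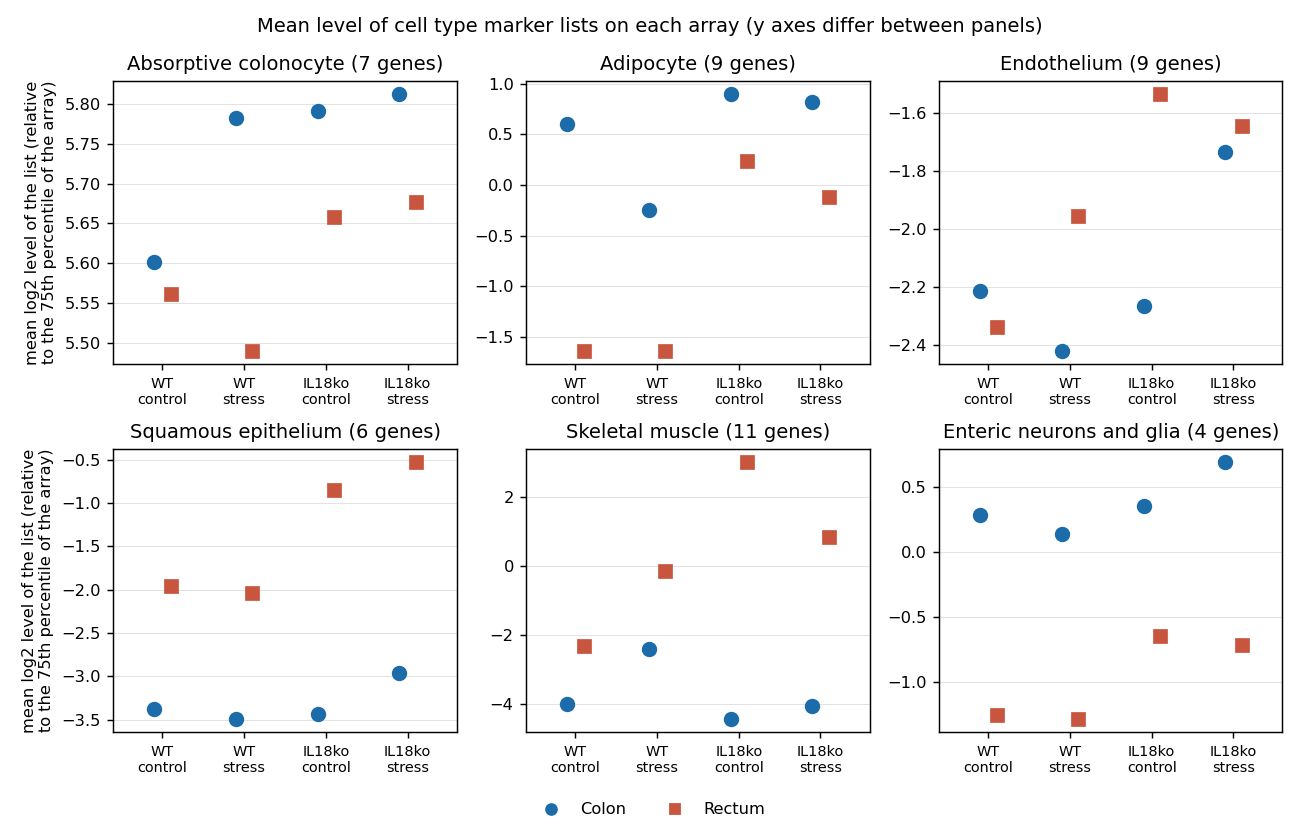
Mean log2 level of the tested genes of 6 marker lists (y axis, relative to the 75th percentile of the array) on each array, by mouse group (x axis), with colon as circles and rectum as squares. The squamous and skeletal muscle lists were highest in the IL18ko rectum, the enteric neuron and glia list was lower on every rectum array than on every colon array, and the adipocyte list was lowest in the WT rectum.

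The promoters of 3 members are shown to set a gene with a lower level in rectum (Aqp1) beside one at a level that did not differ (Aqp8) and one close to background on most arrays (Aqp3). They are the 250 bases before the RefSeq start, on the strand of the gene in build GRCm38.p6, and capitals mark the motifs that were found. The Aqp1 window is chr6:55336049-55336298 on the plus strand, the Aqp3 window chr4:41098184-41098433 on the minus strand and the Aqp8 window chr7:123462044-123462293 on the plus strand.
Aqp1: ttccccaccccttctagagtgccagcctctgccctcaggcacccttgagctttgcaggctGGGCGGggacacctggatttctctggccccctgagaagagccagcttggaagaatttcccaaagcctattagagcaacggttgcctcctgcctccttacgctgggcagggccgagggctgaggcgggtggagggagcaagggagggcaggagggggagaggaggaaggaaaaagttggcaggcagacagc
Aqp3: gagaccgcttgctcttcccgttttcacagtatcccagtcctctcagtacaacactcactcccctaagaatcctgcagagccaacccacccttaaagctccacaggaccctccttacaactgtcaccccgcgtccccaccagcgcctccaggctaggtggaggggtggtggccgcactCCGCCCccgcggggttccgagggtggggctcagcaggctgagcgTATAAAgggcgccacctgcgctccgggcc
Aqp8: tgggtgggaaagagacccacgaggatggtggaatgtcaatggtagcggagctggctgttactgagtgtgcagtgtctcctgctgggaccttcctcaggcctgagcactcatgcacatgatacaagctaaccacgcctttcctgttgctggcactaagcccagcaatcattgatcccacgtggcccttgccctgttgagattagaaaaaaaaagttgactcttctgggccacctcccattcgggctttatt
The base composition was 62% G and C for Aqp1, 64% for Aqp3 and 52.4% for Aqp8.

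A promoter entry was matched by symbol for 5 of the 6 members, Aqp4 being the exception, with 2 starts for Aqp7. Each window was searched on both strands for 4 motifs, with no overlap between the matches found. The TATA box TATAAA was present in the Aqp3 window at -29 and in none of the other aquaporin windows, and 12.4% of 32851 promoter windows held it. The GC box GGGCGG was found once in Aqp1, at -190, and once in Aqp3, at -73 on the opposite strand, against 32.7% of all windows. The glucocorticoid receptor sequence AGAACA was found in one of the Aqp7 windows, at -173, against 16.1% of all windows. The Cdx site TTTATNG was found in none of them, against 9.81% of all windows. On the genome, Aqp3 and Aqp7 are neighbours on chromosome 4 with no protein-coding gene between them, while Aqp8 and Aqp11 lie on chromosome 7 with 458 protein-coding genes between them.

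The comparison of genotypes asked whether loss of interleukin 18, a cytokine made by gut epithelium and myeloid cells, went with a change in these channels. Aqp3 was higher in IL18ko than in WT mice in 4 of 4 pairs, and Aqp4 read higher in both rectum pairs. Aqp3 was 1.48-fold brighter in control colon and 6.22-fold in stress rectum. Where the WT array was not well above background, it was at least 3.06-fold brighter in stress colon and at least 6.29-fold brighter in control rectum. The 4 IL18ko arrays, from -4.84 to -2.32, lay above the 4 WT arrays, from -6.30 to -4.96. The gap between the nearest of them, IL18ko control colon and WT stress rectum, was only 0.12. The mean difference was 1.87 ± 0.37 (SE; 95% interval 0.99 to 2.75), with an unadjusted p of 0.0016 and an adjusted p of 0.188 in limma, so it was not called. The difference was 0.59 after normexp background correction, with an adjusted p of 0.201.

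Of the 5 tested aquaporins, 0 were called for genotype, as limma called 13 of the 26265 probes (0.0495%; 0.019% higher and 0.0305% lower in IL18ko). An unadjusted p under 0.05 was reached by 1 of the 5 aquaporins, Aqp3, and by 16.4% of all probes. All 4 pairs moved the same way in 26.4% of probes, and the genotypes did not overlap in 8.08%. Other fits of the same arrays called 2 aquaporins, Aqp3 and Aqp4: the fit to 4 tissue means (adjusted p = 0.000304 for Aqp3 and 0.025 for Aqp4, with 3078 probes called) and a fit that took the mouse group for a random block (adjusted p = 0.00748 and 0.0353, with 5334 called). The fit to tissue means left fewer residual degrees of freedom than the main fit. The random block had an estimated correlation of -0.469, and a negative value narrows the SE of a genotype difference. With so many probes called, these calls are not read as particular to Aqp3 and Aqp4. Aqp3 was also called without the stress rectum pair (1.61, adjusted p = 0.0495), and its adjusted p over 14 alternatives ran from 0.000304 to 0.656.

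Aqp4 differed by 0.39 ± 0.17 (SE, limma adjusted p = 0.321) between the genotypes. Its pairs were 0.11 and -0.05 in control and stress colon and 0.71 and 0.77 in control and stress rectum. The difference of Aqp4 in rectum exceeded that in colon by 0.71 ± 0.24 (SE; unadjusted p = 0.0193, adjusted p = 0.832), and by 1.40 and 1.06 on its other probes. On those probes most of the excess lay in the stress arrays. Their WT stress rectum readings were -3.22 and -2.76, against -1.73 and -1.69 in WT control rectum. For Aqp3 the rectum pairs, with a mean of 2.64, exceeded the colon pairs, with a mean of 1.09, by 1.55 ± 0.48 (SE; unadjusted p = 0.0146, adjusted p = 0.832). limma called 0 probes for this dependence on tissue, and 2.86% of probes had an unadjusted p under 0.05, so neither difference between the tissues was called.

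The remaining aquaporins showed small genotype differences. They were 0.09 ± 0.16 (SE; 95% interval -0.27 to 0.46) for Aqp1, 0.04 ± 0.10 (-0.19 to 0.28) for Aqp8 and 0.08 ± 0.15 (-0.28 to 0.45) for Aqp11. Aqp7, which was not tested, was at least 1.83-fold brighter in IL18ko than in WT stress colon and at least 1.36-fold dimmer in IL18ko than in WT control colon.

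Some marker lists moved with genotype too. The mean level of the adipocyte list was -1.64 on both WT rectum arrays against 0.24 and -0.12 on the control and stress IL18ko rectum arrays, and from -0.24 to 0.90 in colon. All 9 adipocyte markers had a positive genotype difference (median 1.35, beside 0.01 over all probes), though 0 were called and 7 had an unadjusted p under 0.05. All 9 endothelial markers were also positive (median 0.40, 0 called). The squamous list had a mean level of -1.96 and -2.03 in WT rectum and -0.85 and -0.52 in IL18ko rectum, with 7, 6, 9 and 9 of its 11 genes well above background on those arrays. On the colon arrays 5 of the 11 were. Some other lists moved the same way, with 0 genes called. Positive were 10 of 11 skeletal muscle markers (median 1.1), 7 of 7 smooth muscle markers (median 0.48) and 4 of 4 markers of enteric neurons and glia (median 0.47). The mean level of the enteric list in rectum was -1.26 and -1.29 in WT and -0.65 and -0.72 in IL18ko mice. Within the rectum all 6 of these lists were higher on both IL18ko arrays, where Aqp3 and Aqp4 also read higher. The epithelial and absorptive colonocyte lists were higher there too, while the goblet cell and erythroid lists were lower on both. The median genotype difference was -0.07 for goblet cell, -0.45 for erythroid, -0.47 for neutrophil and -0.09 for macrophage and dendritic cell markers. The part of these cell types in the Aqp3 and Aqp4 values was not tested.

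**Figure D4:**
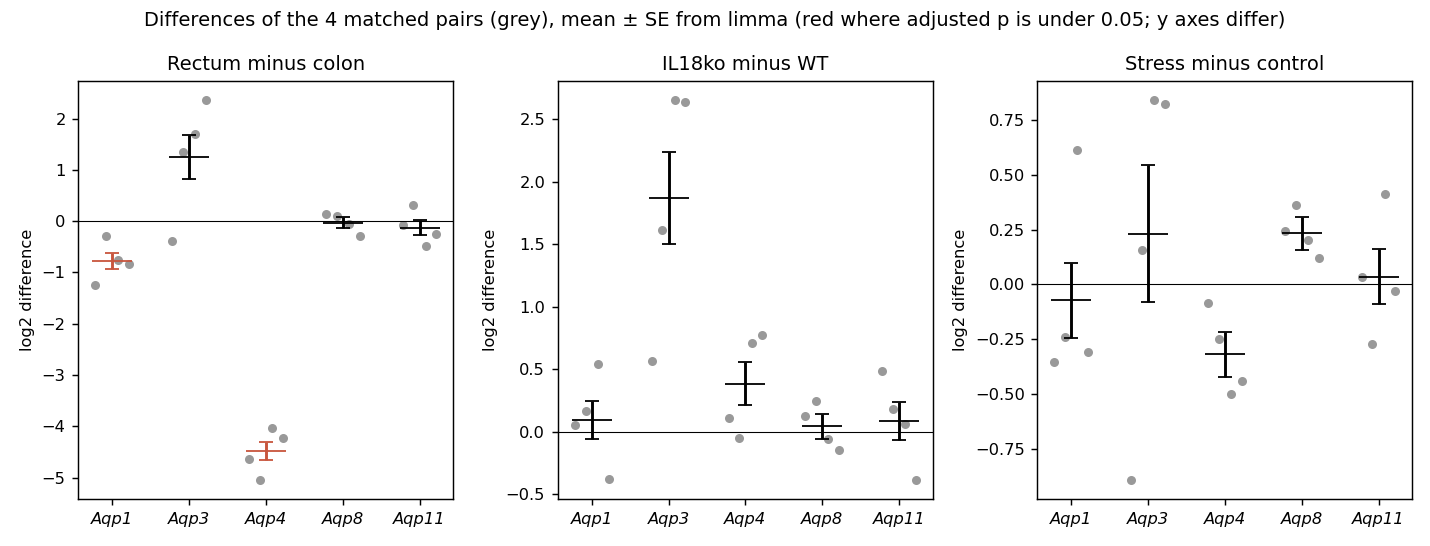
Differences of the 4 matched pairs (grey points) for the 5 tested aquaporins, with their mean and the SE from limma (bars), for rectum minus colon, IL18ko minus WT and stress minus control. The y axes are log2 differences and differ between panels. Aqp1 and Aqp4 fall below 0 for tissue in red, the colour of an adjusted p under 0.05, and Aqp3 lies above 0 in all 4 genotype pairs without passing that threshold.

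The comparison of housing asked whether isolation went with a change in these channels. Aqp8 was slightly higher and Aqp4 slightly lower under stress in 4 of 4 pairs, and neither was called. For Aqp8 the control arrays read 7.45 and 7.58 in colon and 7.59 and 7.52 in rectum, and the stress arrays 7.69 and 7.94 in colon and 7.79 and 7.64 in rectum, WT first. The 4 stress arrays lay above the 4 control arrays, by 0.06 at the nearest. The pair differences were 0.25 and 0.36 in colon and 0.20 and 0.12 in rectum, with a mean of 0.23 ± 0.07 (SE; 95% interval 0.05 to 0.41; 1.18-fold), an unadjusted p of 0.0177 and an adjusted p of 0.866 in limma. Over its 16 alternatives the difference of Aqp8 ran from 0.16 to 0.27 and the adjusted p from 0.282 to 1.

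For Aqp4 the stress pairs were -0.09 and -0.25 in WT and IL18ko colon and -0.50 and -0.44 in WT and IL18ko rectum. Their mean was -0.32 ± 0.10 (SE; 95% interval -0.56 to -0.07), with an unadjusted p of 0.0184 and an adjusted p of 0.866 in limma. In WT colon the other Aqp4 probes went the other way, from 2.68 to 2.93 and from 2.60 to 2.84. Aqp3 differed by 0.23 ± 0.31 (SE; -0.51 to 0.98), Aqp1 by -0.07 ± 0.17 (-0.48 to 0.34) and Aqp11 by 0.04 ± 0.12 (-0.26 to 0.33).

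Of the 5 aquaporins, 0 were called for stress, and limma called 0 of the 26265 probes (0%). An unadjusted p under 0.05 was found for 2 of the 5 aquaporins, Aqp8 and Aqp4, and for 1016 probes (3.87%), and the fit to tissue means called 23 probes, with 0 of the 5 aquaporins called. All 4 pairs moved the same way in 14.3% of probes, and the control and stress arrays did not overlap in 0.685%. The stress difference was called to depend on tissue for 0 probes and on genotype for 0 probes in limma, with an unadjusted p under 0.05 in 0.959% and 1.5% of probes. For Aqp3 the stress difference in rectum exceeded that in colon by 1.20 ± 0.48 (SE, unadjusted p = 0.0412, adjusted p = 1).

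Another 6 aquaporin genes had probes on the array, and 2 of them were tested. Aqp12, a divergent member known from pancreatic acinar cells, was at -4.18, -3.90, -3.58 and -3.51 on the colon arrays. On the rectum arrays it was at -5.48 in WT stress and -5.62 in IL18ko stress mice and not well above background in the controls. In rectum Aqp12 was 2.99-fold lower in WT stress and 4.32-fold in IL18ko stress mice. It was at least 3.46-fold lower in WT control and at least 6.48-fold in IL18ko control mice. The mean difference was -2.34 ± 0.29 (SE), and -2.59 to -0.65 over 12 alternatives. The 4 colon arrays alone met the filter for testing, and the control rectum readings, -6.59 and -6.83, entered the fit as they stand. The p-value of Aqp12 is therefore not used. Aqp2, the vasopressin-regulated channel of the kidney collecting duct, was well above background on all arrays and differed by 0.16 ± 0.14 (SE; 95% interval -0.18 to 0.50) between tissues.

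The other 4 were seen on few arrays or none. Aqp5, known from glands, was well above background only in the IL18ko control rectum, at -0.77, and read -7.43 to -6.30 on the other 7 arrays. It was at least 36.7-fold brighter there than in WT control rectum and at least 46.4-fold brighter than in IL18ko stress rectum. Aqp6 was well above background in WT control colon (-5.21) and in IL18ko control (-4.43) and IL18ko stress (-5.48) rectum. Aqp9, with 3 probes, and Mip, the lens channel, were well above background on no array. In RefSeq order Aqp2, Aqp5 and Aqp6 are neighbours on chromosome 15.

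**Figure D5:**
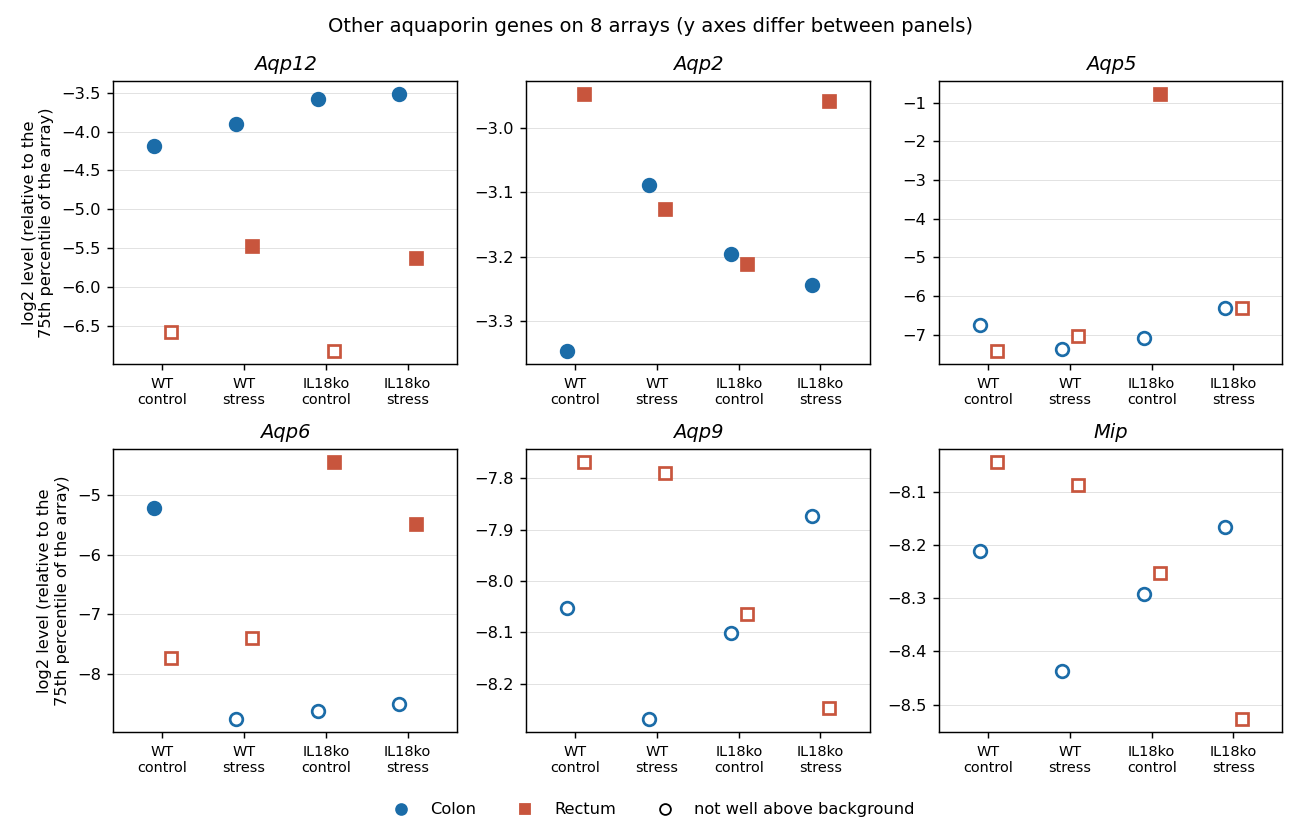
Log2 level of the other 6 aquaporin genes (y axis, relative to the 75th percentile of the array) on each array, by mouse group (x axis), with colon as circles, rectum as squares and open marks where the probe was not well above background. Aqp12 was higher on every colon array than on every rectum array, and Aqp5 was measured in the IL18ko control rectum alone.

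The genes that regulate or partner aquaporins were read from a list of 18, of which 17 were tested. Between tissues 4 were higher in rectum, 5 lower and 8 not called, with a median difference of 0.01. Over all probes 14% were higher and 13.5% lower, with a median of 0.06. Avpr2 is the vasopressin receptor that acts on Aqp2 in kidney, and it was well above background on the 4 colon arrays and on none of the rectum arrays. It was at least 3.29-fold lower in rectum, but by a log2 difference of -0.58 after normexp background correction. As the colon arrays alone brought Avpr2 through the filter for testing, its p-value is not used. The counts of 17 tested and 5 lower still include it. The others named by size were the lipid-sensing nuclear receptors Ppara (-1.38 ± 0.16 SE, limma adjusted p = 0.00145) and Pparg (-1.26 ± 0.11 SE, adjusted p = 0.000426), and Vip, a secretory neuropeptide (-1.24 ± 0.20 SE, adjusted p = 0.00468). Pparg is known to act on Aqp7 in adipocytes.

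The salt transport genes, whose transport water follows, were tested for 15 of 16 listed. In rectum 7 were higher and 2 lower, with 6 not called and a median difference of 0.22, beside 14% higher, 13.5% lower and a median of 0.06 over all probes. The largest were the epithelial sodium channel subunits Scnn1g (6.06 ± 0.21 SE, limma adjusted p = 1.23e-05) and Scnn1b (2.06 ± 0.17 SE, adjusted p = 0.000324), the sodium bicarbonate cotransporter Slc4a4 (2.29 ± 0.23 SE, adjusted p = 0.000727) and the sodium monocarboxylate transporter Slc5a8 (0.74 ± 0.18 SE, adjusted p = 0.0232). Slc5a8 lost its call without the WT control pair (0.79, adjusted p = 0.0807) and without the IL18ko control pair (0.79, adjusted p = 0.0722).

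The glycerol and triglyceride genes, tested for 12 of 12, stand beside Aqp3 and Aqp7. In rectum 2 were higher, 4 lower and 6 not called, with a median difference of -0.18. Over all probes 14% were higher and 13.5% lower, and the median was 0.06. Gk, glycerol kinase, was higher (1.95 ± 0.11 SE, limma adjusted p = 8.55e-05). Lower were the lipase Lpl (-1.88 ± 0.23 SE, adjusted p = 0.00161), Mgll, which releases glycerol from monoglycerides (-1.76 ± 0.11 SE, adjusted p = 0.000103), and Dgat2, an enzyme of triglyceride synthesis (-1.0 ± 0.11 SE, adjusted p = 0.00131).

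For genotype, limma called 0 of the 17 regulators, 0 of the 15 salt transport genes and 0 of the 12 glycerol genes, with 4, 1 and 5 at an unadjusted p under 0.05. For stress it called 0 in each of the 3 lists, with 0, 1 and 0 at an unadjusted p under 0.05. The median genotype differences were 0.17, 0.10 and 0.25, and the median stress differences 0.07, 0.07 and -0.01, in the order of the lists.

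The genes whose levels followed each aquaporin most closely were found by Pearson's correlation over the 8 arrays among 12716 tested genes. The arrays share their slides and tissues, and with 8 values many genes come close, so these are descriptions. For Aqp4 they were Nr4a2 (r = 0.999), Hsd3b3 (0.998) and Ddah1 (0.998), and the gene in place 100 still had r = 0.987. With each tissue's mean subtracted they were H6pd (0.985), Cdkn1c (0.979) and Sema4f (0.975).

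For Aqp1 the closest genes were Wdr78 (r = 0.989), P4ha2 (0.979) and Trim2 (0.975), and with the tissue means subtracted they included Yipf6 (0.965) and Lypd1 (0.954). For Aqp3 they were Zmynd11 (0.941), Ackr1 (0.936), a chemokine-binding receptor of venous endothelium, and Pecam1 (0.933), an endothelial adhesion molecule. With the tissue means subtracted, Aqp3 went with Plin1 (0.975), a lipid droplet protein of adipocytes, Pnpla3 (0.964) and Snap91 (0.962). Pecam1 and Plin1 are members of the endothelial and adipocyte lists above. Pnpla3 and Lypd1 were not well above background on any rectum array, and Sema4f was not on the WT rectum arrays. Aqp3 itself was not in WT stress colon or WT control rectum, so part of these correlations rests on background readings.

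For Aqp8 the closest genes were Ppp4c (r = 0.974), Tac2 (0.958) and Exd2 (0.945), and with the tissue means subtracted Erlin1 (0.987), Pcx (0.985) and Ninj1 (0.985). Aqp11 went with Foxm1, a transcription factor of dividing cells, by both measures (0.949 and 0.970). The others were Slc25a37 (0.940) and Preb (0.929) over the arrays, and 2210407C18Rik (0.968) and Tmem98 (0.966) with the tissue means subtracted.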

How the data were processed

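Total RNA of each pool was labelled with Cy3 and hybridised to Agilent whole mouse genome arrays, per the labels' protocols, and the scans were extracted with Feature Extraction 9.5.1.1, per the file headers. The deposited scanner files give each spot's intensity after the scanner software's background correction. The authors also deposited a table of ratios to the WT control colon array (18330 features, 18134 matched to probes, r of 0.995 to 1 with the same ratios of the scanner files). It was used as an alternative, on the log2 scale.

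Spots marked as outliers (74 to 141 an array) were left out, spots of a probe were averaged, and log2 values were set relative to the 75th percentile of each array, whose intensity was 606 to 860. Of 40963 probes on all 8 arrays, 22857 were named through RefSeq (GRCm38.p6). The number of arrays and the signal over background limit the precision. Pair differences (4 pairs, 3 residual degrees of freedom; 2 pairs against 2 pairs for dependence) were fitted across all 26265 tested probes with limma 3.58.1 in R 4.3.3 (moderated by mean level, Benjamini-Hochberg over all probes, threshold 0.05), after the fit had been tested on simulated data. An exact sign-flip test of 4 pairs cannot go below a two-sided p of 0.125. Fold changes against a probe not well above background are lower bounds, from the lowest signal well above background on each dim array or the probe's own reading, whichever is higher. Levels of different probes are not compared.

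Named were all aquaporins, Il18, at most 4 called genes of each other list with the largest difference, and the 3 most correlated genes of each tested member, 1 of which is not reported here. Of the marker lists only Elavl4, S100b, Hba-a1, Alas2, Cidec and Col17a1 are named with values, as examples chosen after their values were seen. The members and lists were chosen with earlier results of these data known. Alternatives were quantile and median scaling, normexp background correction (offset 50), the deposited ratios, 2 other filters on dim probes, a common floor, no variance trend, the mean of a gene's probes, the 8 arrays as independent, tissue means, the mouse group as a random block, and leaving out each pair. Python 3.11.15 (numpy 2.4.6, pandas 2.3.3, matplotlib 3.10.9) was used for loading, counts and figures.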

Additional observations from a re-analysis of the deposited data

Results flagged for a closer look

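Aqp11 in the rectum of WT stress mice read 1.67, while the other 3 rectum arrays lay between 1.26 and 1.32. Aqp5 in the rectum of IL18ko control mice read -0.77, while the other 3 rectum arrays lay between -7.43 and -6.31 and were not well above background. Aqp6 in the colon of WT control mice read -5.21, while the other 3 colon arrays lay between -8.76 and -8.50 and were not well above background. Each reading stood apart from the other arrays of its tissue by a gap, relative to the range, above Dixon's 95% value for 4 samples. In all, 18 sets of 4 arrays with at least 1 reading well above background were looked at, with 3 flagged. Chance passes that value in about 1 in 20 sets that were not chosen by their values. The Aqp5 and Aqp6 sets were looked at only because of the flagged array, so that rate does not hold for them. For Aqp5 and Aqp6 the other 3 readings were background, so the size of the gap was not measured: Aqp5 was at least 36.7-fold brighter than in WT control rectum, and Aqp6 at least 2.41-fold brighter than in WT stress colon and at least 2.16-fold brighter than in IL18ko control colon. The 4 arrays of a tissue are 4 different mouse groups, so a value that stands apart can be that group's own.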

How the results depend on the processing

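Among 344 alternative values of the 6 aquaporins, 335 kept their side of the threshold with no called value changing sign, 2 lost a call (Aqp1 for tissue, without a pair), 7 gained one (Aqp3 and Aqp4), and 0 reversed. Aqp7 was tested only with the filter of at least 1 array above background, and was not called. The number of probes called for tissue, 7220, was 4773 with the deposited ratios and 3509 to 10716 leaving out each pair, with 1 to 2 aquaporins called (lowest 3509 without the WT control pair, and 1 aquaporin called without the IL18ko control pair, with 3796 probes). The number called for genotype, 13, was 4 with the deposited ratios, 7 with probes above background on all 8 arrays, 32 with the arrays as independent, 3078 with tissue means (2 aquaporins), 5334 when the mouse group was a random block (2 aquaporins) and 3 to 2441 leaving out each pair (0 to 1 aquaporins). It was 2441 without the stress rectum pair, 3 without the control colon pair and 4 without the control rectum pair. The cause was not tested. The number called for stress was 23 with tissue means and 0 in the main analysis. The estimated correlation within the random block was -0.469. For the normexp setting, which used the median signal, the 15 probes that lay over 50 units below local background were omitted, a choice made after seeing the data. No paired analysis was possible because each group has 1 array and the replicate number 1 names no shared animal. The matched pairs of the report are pairs of groups. Dim probes (Aqp3, Aqp7, Aqp12) carry the least certain differences: normexp brought the tissue difference of Aqp12 from -2.34 to -0.65 and the genotype difference of Aqp3 from 1.87 to 0.59, and the tissue differences of Alas2 from 3.18 to 1.34 and of Scnn1g from 6.06 to 3.90.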

Other observations

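Aqp5 was one of 58 named genes that were well above background in the IL18ko control rectum and on no other array. Among them were Prol1, a secreted protein of glands, at 1.90, and Odam, a secreted protein known from teeth, at -1.05. The other 7 arrays had 38 to 131 such genes each. The skeletal muscle list was highest on the same array, with a mean level of 3.03 against 0.86 in IL18ko stress rectum, -0.13 in WT stress rectum and -2.33 in WT control rectum. Prol1 and Odam were singled out after their values were seen.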
